A study of Mus musculus with 6 samples.

Results

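The genes described here are 30 transcripts that mark the cells around and between the neurons of the brain: 17 markers of endothelial cells, 5 of pericytes and smooth muscle cells, and 8 of meningeal fibroblasts. They were taken by gene symbol from a table of 23420 genes, and collagen genes were left out of the list. All 30 were found in the table and all 30 passed the filter on low counts. The study sequenced RNA from mouse neocortex at embryonic day 18.5 in 2 groups, Tshz3 mutant and wild type. Tshz3 encodes a teashirt-type transcription factor with zinc fingers. Each group has 3 libraries, and each library is a pool of cortices from 3 to 4 embryos drawn from several litters. The sources used here give no strain, sex, exact allele, agent or treatment for either group.

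Endothelial cells line the vessels that grow into the cortex from its surface, and in the brain they seal to each other and carry nutrient and efflux transporters, which together make the blood-brain barrier. Pericytes sit on the capillary wall and are recruited by platelet-derived growth factor from the endothelium, while smooth muscle cells wrap the larger vessels and contract through an actin cytoskeleton. Meningeal fibroblasts form the membranes over the brain, lay down a matrix of small proteoglycans and make retinoic acid, and they remain on a dissected cortex only as far as its membranes do. Transcripts of all these cells are a small part of the RNA of a bulk cortex, and in bulk RNA fewer cells of a type and less RNA per cell cannot be told apart.

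Library totals were between 18569383 and 24147810 reads, and levels are given as CPM, the count scaled to library size with TMM factors, where 1 CPM stood for 18.4 to 24.0 reads. Cortical neuron genes were abundant in all 6 pools, with Neurod6 at 569 to 645 CPM and Tbr1 at 229 to 280 CPM. Tshz3 itself was at 89.8, 93.1 and 99.2 CPM in mutant-labelled pools 1, 2 and 3, against 78.7, 83.0 and 89.3 CPM in wild-type pools 1, 2 and 3. Its log2 fold change was 0.17 (SE 0.07, n = 3 per group, edgeR adjusted p = 0.669). The sources used here do not say which part of the gene is mutated, so this count did not check the labels and the pools are called mutant-labelled. Mutant-labelled pool 1 and wild-type pool 1 stood apart from the other 4 pools in choroid plexus transcripts, whose 10 markers summed to 842, 200 and 158 CPM in mutant-labelled pools 1, 2 and 3 and to 859, 130 and 239 CPM in wild-type pools 1, 2 and 3. All fold changes are mutant-labelled over wild type, and a gene was called at an adjusted p under 0.05 over 14618 tested genes in edgeR's quasi-likelihood test.

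None of the 30 markers was called different between the genotypes. With all pools treated as independent the smallest adjusted p of a member was 0.678 (Sox18), and 0.0752% of all tested genes were called. Across all genes, deviations from the group means correlated at 0.61, 0.51 and 0.47 between same-numbered pools, and the fit was repeated with the number as a block. The summed meningeal markers did not follow that for number 2, where they were below the group mean in the mutant-labelled pool and above it in the wild-type pool. It called 3.46% of all tested genes and again 0 of the 30, with a smallest adjusted p of 0.109 (Slc2a1). DESeq2 also called 0 of the 30, against 0.698% of all tested genes. At an unadjusted p under 0.05, 1 of the 30 (Sox18) passed without the block, where 7.09% of all tested genes did. With the block, 2 passed as higher (Mfsd2a and Sox18) and 6 as lower (Tek, Slc2a1, Robo4, Acta2, Tagln and Lum) at that looser limit, where 9.36% and 8.51% of all tested genes passed as higher and as lower. The groups did not overlap for 2 of the 30, both higher in mutant-labelled pools, and for 0 in the other direction, where 7.42% and 6.09% of all tested genes separated in those directions.

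**Figure D1:**
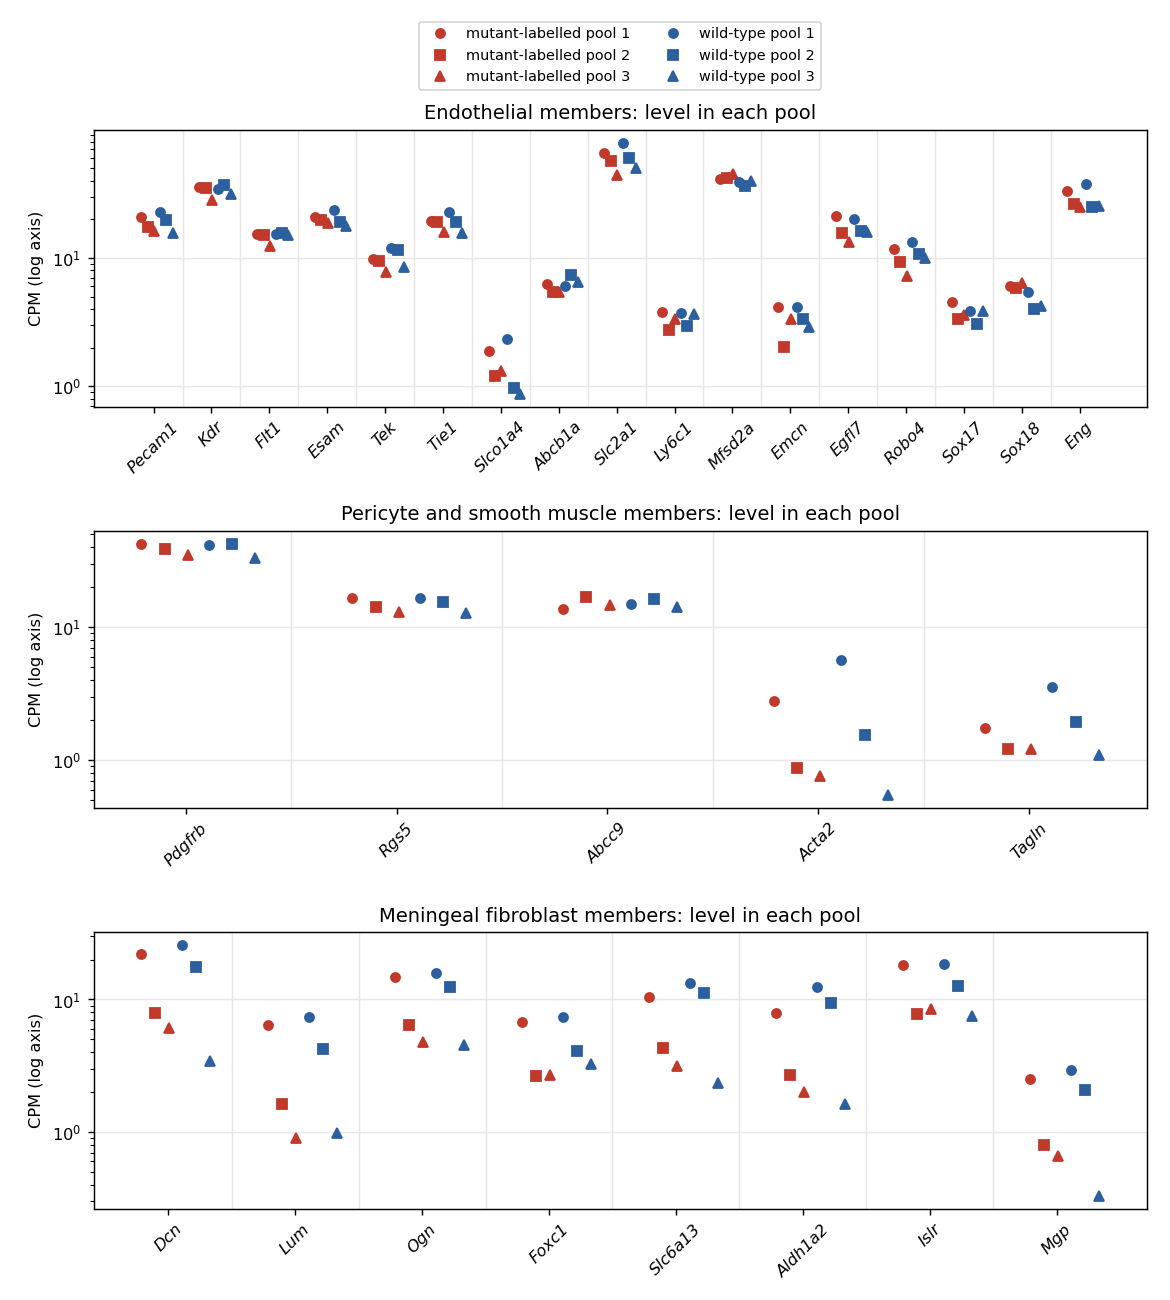
Level of each of the 30 markers in each pool, in CPM on a log axis, with red for mutant-labelled and blue for wild-type pools and the marker shape for the pool number. Pericyte genes and most endothelial genes lie close together over the 6 pools, with Slco1a4 and Emcn wider. Acta2 and the 8 meningeal genes spread at least 2.26-fold within each genotype, and Tagln 3.27-fold in wild-type pools.

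Endothelial markers kept a similar summed level in all pools. The 17 genes summed to 322, 287 and 258 CPM in mutant-labelled pools 1, 2 and 3 and to 346, 292 and 268 CPM in wild-type pools 1, 2 and 3. The highest pool was thus 1.34 times the lowest, and in both genotypes pool 1 was highest and pool 3 lowest. The median log2 fold change of the 17 genes was −0.07, with 4 above 0 and 13 below, beside a median of −0.007 over all tested genes. For 11 of the 17 the 95% interval of the fold change lay inside 1.5-fold in either direction, where 10680 of all 14618 tested genes did. The interval reached a 2-fold lower level for 0 of the 17, where 1063 of all 14618 did. The median was 0.03 without wild-type pool 1, 0.004 without mutant-labelled pool 3 and −0.18 without mutant-labelled pool 1.

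The growth factor receptors of the endothelium include Kdr and Flt1, which bind vascular endothelial growth factor, and Tek and Tie1, the angiopoietin receptor and its partner. Kdr was at 35.6, 34.8 and 28.2 CPM in mutant-labelled pools and 34.2, 36.8 and 31.2 CPM in wild-type pools (log2 fold change −0.05, SE 0.11). Tek was at 9.85, 9.42 and 7.76 CPM in mutant-labelled pools and 11.9, 11.6 and 8.49 CPM in wild-type pools (log2 fold change −0.25, SE 0.17). For both receptors the genotypes overlapped, and pool 3 was the lowest of its genotype. Flt1 and Tie1 had log2 fold changes of −0.10 (SE 0.11) and −0.09 (SE 0.15). Eng, a co-receptor for TGF-beta family ligands, had a log2 fold change of −0.05 (SE 0.18), with the highest level of its group in pool 1 of each genotype.

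Among adhesion and surface genes, Pecam1, which joins endothelial cells to each other, was at 20.7, 17.5 and 16.3 CPM in mutant-labelled pools, against 22.9, 19.7 and 15.8 CPM in wild-type pools. These levels run in the same order of pools in both genotypes, and the log2 fold change was −0.10 (SE 0.15). Esam, another junctional adhesion molecule, differed by −0.03 (SE 0.12) on the log2 scale. Robo4, a guidance receptor that stabilises vessels, was at 11.7, 9.30 and 7.25 CPM in mutant-labelled pools and 13.3, 10.7 and 9.91 CPM in wild-type pools (log2 fold change −0.26, SE 0.20). Its level was lower in the mutant-labelled pool of each number, yet mutant-labelled pool 1 lay above wild-type pools 2 and 3. Emcn, a sialomucin of venous and capillary endothelium, ran from 2.04 to 4.15 CPM over the 6 pools, and Egfl7, a secreted regulator of vessel growth, from 13.3 to 21.3 CPM. Their log2 fold changes were −0.13 (SE 0.28) and −0.06 (SE 0.18). Part of the Egfl7 count is uncertain, because 9.54% of its 50-base stretches also occur in the transcript Gm20532 and the microRNA gene Mir126a lies within it.

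Of the barrier transporters, Mfsd2a and Slc2a1 had the highest mean levels of the endothelial members per length in both genotypes, between 15.9 and 19.1 CPM per kb of exon. Slc2a1, the glucose transporter of the barrier, was at 66.1, 57.0 and 44.3 CPM in mutant-labelled pools and 79.2, 60.1 and 50.4 CPM in wild-type pools. Each mutant-labelled pool was below the wild-type pool of its number, while the groups overlapped. Its log2 fold change was −0.18 (SE 0.20, adjusted p = 0.931), and −0.18 (SE 0.06, adjusted p = 0.109) with the block. Slc2a1 passed the threshold as lower only in the blocked fit without the pools numbered 2 (adjusted p = 0.0056), in which 1119 of all tested genes were called higher and 755 lower. That fit rests on few pools, and its p-values lean on spread borrowed from other genes. Mfsd2a, which carries lipids into the brain and holds down vesicle traffic across the endothelium, was at 41.2, 42.2 and 45.4 CPM in mutant-labelled pools, against 39.1, 36.1 and 40.0 CPM in wild-type pools. All mutant-labelled pools lay above all wild-type pools, by as little as 41.2 against 40.0 CPM. The log2 fold change was 0.16 (SE 0.07, 95% interval −0.004 to 0.33), with an adjusted p of 0.719. Its direction held in each of 15 other fits, but these draw on the same separated pools and are no further support.

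Abcb1a, the efflux pump known as P-glycoprotein, differed by −0.22 on the log2 scale (SE 0.14) and ran from 5.39 to 7.39 CPM over the 6 pools. Slco1a4, an organic anion transporter, was the lowest endothelial member, at 0.871 to 2.32 CPM, and its interval was correspondingly wide (log2 fold change 0.07, SE 0.41). Some reads of Abcb1a could also fit its neighbour in sequence Abcb1b, which holds 15.5% of its 50-base stretches. The surface antigen gene Ly6c1 shared most of all: 31.7% of its 50-base stretches occur in Ly6c2. Reads that lie wholly within those stretches cannot be assigned to either gene by sequence. The coding sequences of both genes are 393 bases long and 384 of those bases are the same (97.7%). The first 120 coding bases of each are shown because they make the likeness visible, from GENCODE transcripts on chromosome 15 of GRCm38, minus strand, with capitals at the 6 positions where the genes differ.
Ly6c1: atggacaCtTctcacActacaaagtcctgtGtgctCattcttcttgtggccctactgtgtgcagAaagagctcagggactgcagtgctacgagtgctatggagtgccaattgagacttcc
Ly6c2: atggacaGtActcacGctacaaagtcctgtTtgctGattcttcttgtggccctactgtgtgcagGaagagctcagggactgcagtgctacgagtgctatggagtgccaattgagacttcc

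Within that limit, Ly6c1 was at 3.77, 2.75 and 3.32 CPM in mutant-labelled pools and 3.75, 2.95 and 3.65 CPM in wild-type pools. The genotypes overlapped throughout, and the log2 fold change was −0.07 (SE 0.19).

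Of the endothelial transcription factors, Sox17 marks arterial endothelium and Sox18 acts in vessel and lymphatic development. Sox18, on chromosome 2 of GRCm38 from 181669836 to 181671640, was at 6.03, 5.80 and 6.35 CPM in mutant-labelled pools and 5.45, 4.01 and 4.25 CPM in wild-type pools. Each mutant-labelled pool lay above each wild-type pool. The log2 fold change of 0.40 (SE 0.16, 95% interval 0.03 to 0.78) was the largest upward value of the 30 genes, with an adjusted p of 0.678. These levels rest on 126 to 139 reads in mutant-labelled pools and 78 to 115 reads in wild-type pools. Sox17 overlapped between the genotypes, with a log2 fold change of 0.10 (SE 0.19), and 16.9% of its exon bases lie opposite the antisense transcript Gm37587.

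**Figure D2:**
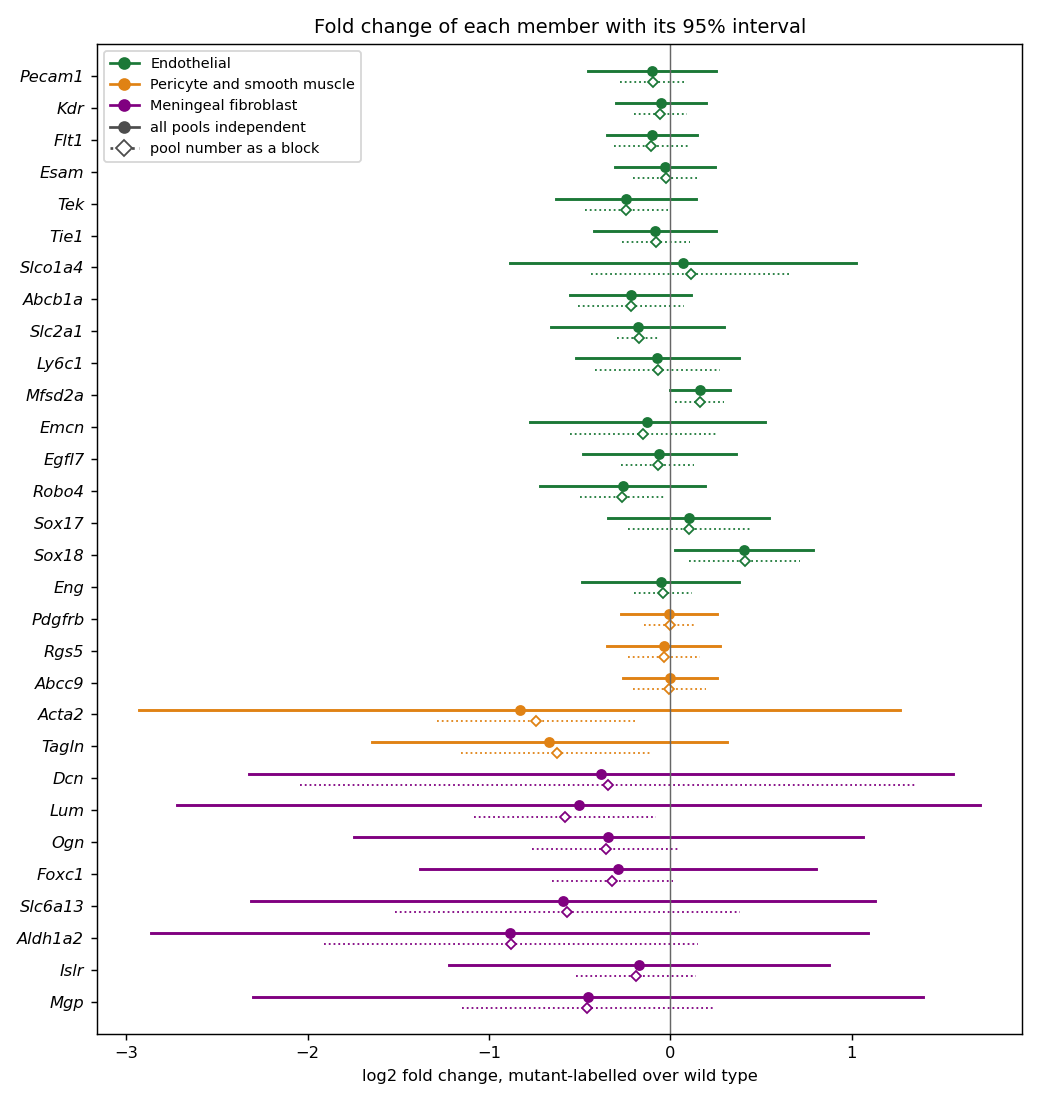
Log2 fold change, mutant-labelled over wild type, of each marker with its 95% interval, with filled circles for the fit that treats pools as independent and open diamonds for the fit with pool number as a block. Intervals are narrow for most endothelial and pericyte genes and span several-fold for Acta2 and for all 8 meningeal genes.

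The pericyte genes were at like levels in both genotypes. Pdgfrb, the platelet-derived growth factor receptor that pericytes need for recruitment, was at 42.5, 39.0 and 34.9 CPM in mutant-labelled pools and 41.4, 42.3 and 33.1 CPM in wild-type pools. Rgs5, a regulator of G protein signalling enriched in pericytes, was at 16.5, 14.2 and 13.1 CPM in mutant-labelled pools and 16.7, 15.4 and 12.8 CPM in wild-type pools. Abcc9, a subunit of a potassium channel of pericytes, was at 13.7, 16.9 and 14.8 CPM in mutant-labelled pools and 15.1, 16.2 and 14.2 CPM in wild-type pools. The genotypes overlapped for all 3 genes. Their log2 fold changes were −0.01 (SE 0.11, 95% interval −0.27 to 0.26), −0.04 (SE 0.13, −0.35 to 0.28) and −0.003 (SE 0.11, −0.26 to 0.25). The sign turned for all 3 when single pools were left out, and for Pdgfrb and Abcc9 also with no scaling factor.

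The smooth muscle genes Acta2 and Tagln spread further than the pericyte genes between pools of a genotype. Acta2, the smooth muscle actin gene, was at 2.78, 0.876 and 0.755 CPM in mutant-labelled pools and 5.69, 1.55 and 0.544 CPM in wild-type pools. Tagln, an actin-binding protein of smooth muscle, was at 1.74, 1.21 and 1.21 CPM in mutant-labelled pools and 3.56, 1.93 and 1.09 CPM in wild-type pools. Pool 1 was highest in both genotypes for both genes, and wild-type pool 3 was the lowest of all 6. The log2 fold change was −0.83 for Acta2 (SE 0.88, 95% interval −2.93 to 1.27) and for Tagln −0.67 (SE 0.42, −1.65 to 0.31). Each interval holds both no change and a 2-fold lower level. These are low counts, 10 to 120 reads per pool for Acta2 and 20 to 75 for Tagln. Of the exon bases of Tagln, 62.4% lie opposite the antisense transcript Gm48529, and the sources used here do not say whether counting used strand.

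Single pools decided the Acta2 value. Without wild-type pool 1 its log2 fold change was 0.46, and without mutant-labelled pool 1 it was −1.67, both far from the threshold. With the block it was −0.74 (SE 0.26, adjusted p = 0.137). Acta2 passed as lower only in the blocked fit without the pools numbered 2 (adjusted p = 0.0324), which rests on few pools. Without the pools numbered 1 in both groups the unblocked value was −0.37. Acta2 and Tagln are textbook targets of serum response factor, which binds the CArG box, and the 250 bases before the RefSeq start of Acta2 (GRCm38.p6, minus strand) hold 2 matches to it. The match allowed at most 1 of the 6 inner bases to be other than A or T between CC and GG, which reads alike on both strands. The 30 bases around each match are shown because Acta2 had the widest spread of the mural genes, and capitals mark the box. The same windows of Rgs5 and Abcc9 hold no match, and no window was searched for Tagln or Pdgfrb.
Acta2 distal box, chr19:34255438-34255467: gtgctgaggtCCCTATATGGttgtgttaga
Acta2 proximal box, chr19:34255388-34255417: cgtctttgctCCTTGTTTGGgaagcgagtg

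The matches begin 84 and 34 bases before that start, and both lie inside the GENCODE span of Acta2, from 34241090 to 34255590. Of 32851 RefSeq promoter windows of that length, 8.59% hold at least 1 such match and 0.67% hold at least 2. Among the 21 markers with a window examined, 5 hold at least 1, namely Acta2 and the endothelial genes Kdr, Slco1a4, Egfl7 and Eng. A match describes the letters of the window and says nothing about binding in these embryos.

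**Figure D3:**
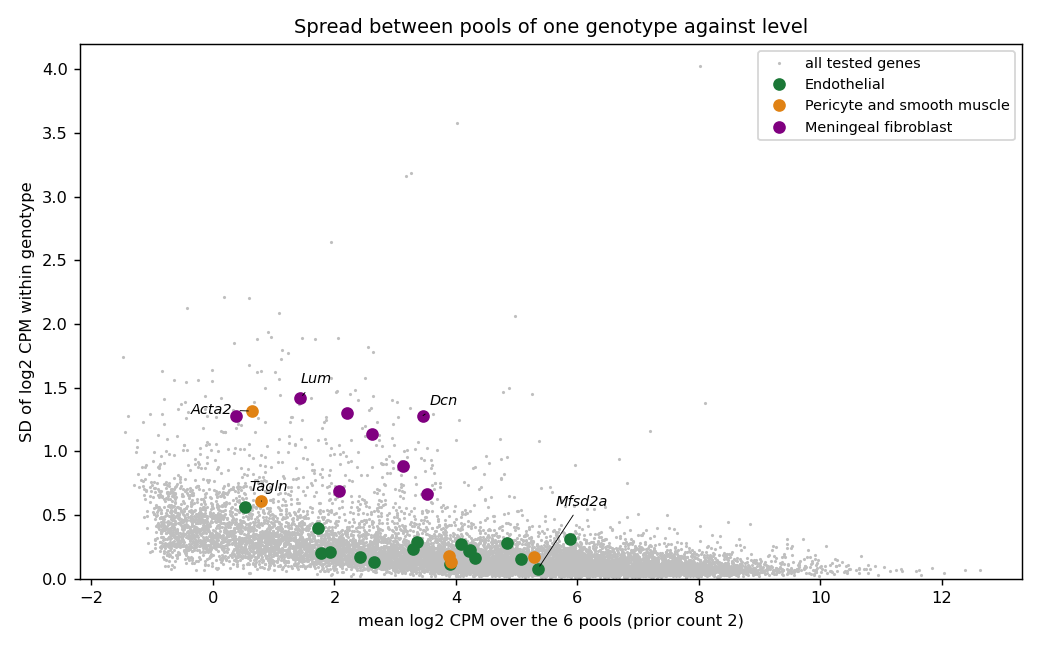
SD of log2 CPM between pools of the same genotype (vertical) against mean log2 CPM over the 6 pools (horizontal) for all tested genes in grey and the 30 markers in colour. The 8 meningeal genes and Acta2 lie far above most genes of the same level, while pericyte genes and most endothelial genes lie within the grey band.

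Meningeal fibroblast markers differed more between pools of a genotype than between genotypes. The 8 genes summed to 89.2, 34.1 and 28.8 CPM in mutant-labelled pools 1, 2 and 3 and to 104, 73.7 and 24.0 CPM in wild-type pools 1, 2 and 3. Within the mutant-labelled group the highest pool was 3.10 times the lowest, and within the wild-type group 4.32 times. Mutant-labelled pool 1 and wild-type pools 1 and 2 were high, and the other 3 pools were low. The group means were 50.7 ± 33.4 CPM and 67.1 ± 40.2 CPM in mutant-labelled and wild-type pools (SD, n = 3 each), so the difference was smaller than either SD.

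Dcn and Lum encode the small matrix proteoglycans decorin and lumican. Dcn, on chromosome 10 of GRCm38 from 97479609 to 97518143, was at 22.1, 7.84 and 6.09 CPM in mutant-labelled pools and 25.8, 17.6 and 3.43 CPM in wild-type pools. Lum was at 6.41, 1.63 and 0.907 CPM in mutant-labelled pools and 7.40, 4.25 and 0.980 CPM in wild-type pools. Both genes were high and low in the same pools as the sum. Their log2 fold changes were −0.38 (SE 0.79) and −0.51 (SE 0.91). Ogn, another proteoglycan of the same family, was at 14.8, 6.46 and 4.78 CPM in mutant-labelled pools and 15.9, 12.5 and 4.57 CPM in wild-type pools (log2 fold change −0.34, SE 0.58). Mgp, the matrix Gla protein that inhibits calcification, was the lowest meningeal member, at 0.327 to 2.94 CPM over the 6 pools (log2 fold change −0.45, SE 0.78).

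Aldh1a2 makes retinoic acid, and in the embryonic brain the meninges are the main site of that synthesis. It lies on chromosome 9 of GRCm38 from 71215789 to 71296243 and was at 7.92, 2.71 and 2.01 CPM in mutant-labelled pools, against 12.3, 9.32 and 1.63 CPM in wild-type pools. The wild-type pools thus held both the highest and the lowest level. Aldh1a2 had the largest negative log2 fold change of the 30 genes, −0.89 (SE 0.81, 95% interval −2.86 to 1.09, adjusted p = 0.907). It ran from −0.40 without wild-type pool 1 to −1.71 without mutant-labelled pool 1. With the block it was −0.88 (SE 0.38, adjusted p = 0.342).

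Foxc1, a forkhead factor required for the meninges to form, was at 6.79, 2.63 and 2.67 CPM in mutant-labelled pools and 7.40, 4.06 and 3.27 CPM in wild-type pools (log2 fold change −0.29, SE 0.46). Slc6a13, a GABA transporter of meningeal fibroblasts, was at 10.4, 4.29 and 3.17 CPM in mutant-labelled pools and 13.3, 11.2 and 2.34 CPM in wild-type pools (log2 fold change −0.59, SE 0.70). Islr, a fibroblast gene of the immunoglobulin superfamily, was at 18.3, 7.80 and 8.46 CPM in mutant-labelled pools and 18.6, 12.7 and 7.46 CPM in wild-type pools (log2 fold change −0.17, SE 0.44). In all 3 genes pool 1 was the highest of its genotype, and the genotypes overlapped. Islr shares 6.74% of its exon bases with Islr2 on the same strand, so part of its count is uncertain.

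The log2 fold changes of the 8 genes were all below 0, with a median of −0.42, but the 8 intervals each held both 0 and a 2-fold lower level. The 8 values are not 8 independent signs, because the genes share the same pools. Leaving out wild-type pool 1 turned the median to 0.11, and leaving out mutant-labelled pool 1 took it to −1.21. It was −0.17 without mutant-labelled pool 2, −0.08 without mutant-labelled pool 3 and −0.90 without wild-type pool 3. Without the pools numbered 1 in both groups it was −0.67.

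The 3 groups of markers thus differed in precision more than in direction. The median SE of the log2 fold change was 0.17 for endothelial, 0.13 for pericyte and smooth muscle and 0.74 for meningeal genes, beside 0.107 over all tested genes. The median SD of log2 CPM between pools of the same genotype was 0.216, 0.182 and 1.21 for those groups, and 0.131 over all tested genes. The 8 meningeal genes ranked from the 96.8th to the 99.7th percentile of all tested genes by this SD, Acta2 stood at the 99.5th and Tagln at the 96.1st. The steadiest marker was Mfsd2a, with an SD of 0.0755. Dcn and Rgs5, with wild-type means of 15.6 and 14.9 CPM, had SDs of 1.28 and 0.182.

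**Figure D4:**
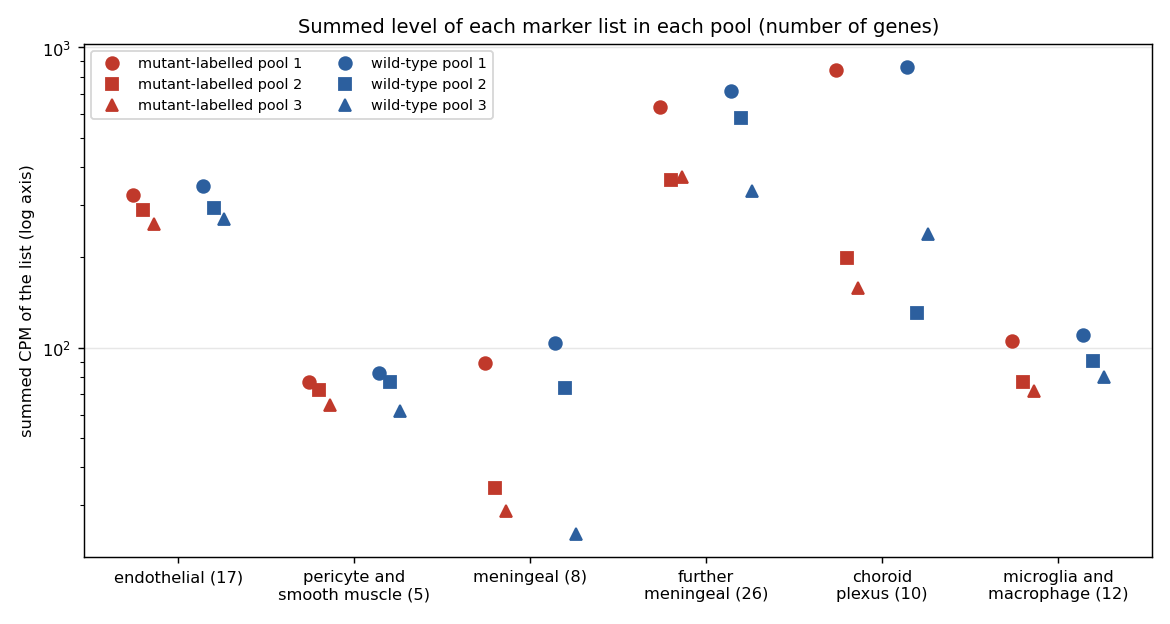
Summed CPM, on a log axis, of the endothelial, mural and meningeal markers and of 3 further lists in each pool, with mutant-labelled pools left and in red and wild-type pools right and in blue. The meningeal lists are high in mutant-labelled pool 1 and wild-type pools 1 and 2, and the choroid plexus list in mutant-labelled pool 1 and wild-type pool 1.

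The markers followed a shared order of pools. Mutant-labelled pool 1 was the highest of its genotype for 15 of 17 endothelial, 4 of 5 pericyte and smooth muscle and 8 of 8 meningeal genes, where 37.7% of all tested genes had it highest. Wild-type pools ran from high to low in the order 1, 2 and 3 for 9 of 17, 3 of 5 and 8 of 8 genes, where 14.4% of all tested genes did. Transcripts of neighbouring tissues varied beside them. All 10 choroid plexus markers were highest in pool 1 of each genotype, led by Ttr, the transthyretin gene, at 787, 182 and 143 CPM in mutant-labelled pools and 800, 115 and 219 CPM in wild-type pools. Wild-type pool 2 was high in meningeal markers and lowest in choroid plexus markers. The 12 microglia and macrophage markers summed to 106, 76.7 and 71.7 CPM in mutant-labelled pools and 110, 90.6 and 80.3 CPM in wild-type pools. Among them Mrc1, which marks macrophages at the brain border, was at 9.05, 4.54 and 2.22 CPM in mutant-labelled pools and 11.7, 12.4 and 2.23 CPM in wild-type pools, high in the same 3 pools as the meningeal genes. The part of dissection or of any of these tissues in the meningeal values was not tested.

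Blood transcripts were present in every pool. Of 13 blood genes found, 4 were tested, and their list summed to 238, 233 and 185 CPM in mutant-labelled pools and 284, 172 and 144 CPM in wild-type pools. Most of it was Beta-s, which the RefSeq gene table gives as an older symbol of the adult beta-globin gene Hbb-bs. It was at 225, 220 and 174 CPM in mutant-labelled pools and 270, 163 and 136 CPM in wild-type pools (log2 fold change 0.12, SE 0.26, adjusted p = 0.972). Pool 1 was highest and pool 3 lowest in both genotypes, as for the endothelial sum, and the part of blood in the endothelial values was not tested. The globin symbols Hba-a1, Hba-a2, Hbb-b1 and Hbb-b2 are listed at 0 in all 6 pools, and how reads shared by globin copies were counted is not stated, so the Beta-s count is uncertain. The erythroid gene Alas2 was at 9.76, 9.21 and 6.45 CPM in mutant-labelled pools and 11.8, 5.26 and 6.04 CPM in wild-type pools. Of 10 skull, skin and muscle genes, 7 were too low to test. Postn, Alpl and Runx2 were tested, and the list summed to 23.3, 14.1 and 13.0 CPM in mutant-labelled pools and 25.7, 22.7 and 14.8 CPM in wild-type pools. Runx2, a bone transcription factor, was called lower with the block (log2 fold change −0.54, SE 0.13, adjusted p = 0.0398) and not without it (adjusted p = 0.484).

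**Figure D5:**
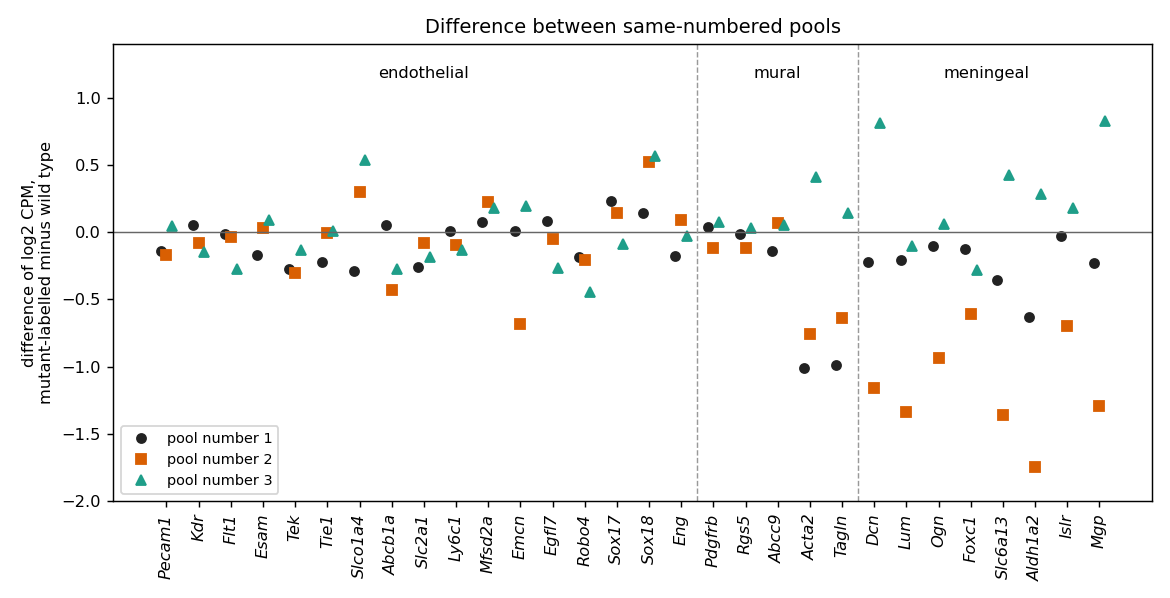
Difference of log2 CPM, mutant-labelled minus wild type, between pools of the same number for each of the 30 markers, with the marker shape and colour for the pool number. Meningeal genes lie between −1.75 and −0.61 for number 2 and mostly above 0 for number 3, while endothelial genes lie between −0.68 and 0.57 over the 3 numbers.

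The meningeal difference between same-numbered pools varied with the number. The median difference of log2 CPM over the 8 genes, mutant-labelled minus wild type, was −0.21 for number 1, −1.23 for number 2 and 0.23 for number 3. All 8 genes were below 0 for numbers 1 and 2, and 6 of 8 were above 0 for number 3. The endothelial medians were −0.01, −0.05 and −0.09, and those of pericyte and smooth muscle genes −0.14, −0.11 and 0.07. Lum was the single meningeal gene to pass an unadjusted p under 0.05 with the block (log2 fold change −0.58, SE 0.23, adjusted p = 0.21). The sources used here do not say what the shared numbers stand for.

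Further genes of the same cells gave a like picture. The companion lists held 30 endothelial, 18 pericyte and smooth muscle and 26 meningeal genes and 31 genes of vessel signalling, 105 names in all, of which 101 were tested. Cnn1 and Lmod1 of smooth muscle and Slc47a1 and Mfap5 of the meninges were too low to test. Without the block 0 of the 101 were called by edgeR or by DESeq2, which called 0.0752% and 0.698% of all tested genes. At an unadjusted p under 0.05 in edgeR, 4 were higher and 4 lower, where 7.09% of all tested genes passed in either direction. With the block 1 was called higher and 3 lower, where 3.46% of all tested genes were called in either direction. The medians of the log2 fold change were −0.08, −0.09, −0.28 and −0.01 in the endothelial, mural, meningeal and signalling lists.

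In the companion endothelial list the largest positive value was that of Slc16a1, a monocarboxylate transporter of the barrier, with a log2 fold change of 0.27 (SE 0.13, adjusted p = 0.75). The largest negative one was that of Apold1, an endothelial gene known to respond quickly to stimuli, at 5.56, 5.55 and 5.09 CPM in mutant-labelled pools and 5.36, 12.1 and 13.1 CPM in wild-type pools. Wild-type pools 2 and 3 were high and wild-type pool 1 lay within the mutant-labelled range (log2 fold change −0.91, SE 0.32, adjusted p = 0.577). Among companion mural genes the extremes were Higd1b, a gene enriched in pericytes (log2 fold change 0.23, SE 0.18), and Tbx18, a mural and meningeal transcription factor (−0.39, SE 0.66). The levels of Tbx18, 7.64, 2.71 and 2.42 CPM in mutant-labelled pools and 8.63, 6.23 and 1.74 CPM in wild-type pools, were high in the same 3 pools as the meningeal genes.

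All 24 tested companion meningeal genes had a log2 fold change below 0, where 7640 of all 14618 tested genes did. Values ran from −0.65 for Fmod (SE 0.58), another small proteoglycan, to −0.0006 for the chemokine gene Cxcl12 (SE 0.25). These are not 24 independent signs, because the genes share the same pools with each other and with the meningeal members. The companion meningeal list summed to 632, 361 and 372 CPM in mutant-labelled pools and 717, 584 and 334 CPM in wild-type pools. It was high in mutant-labelled pool 1 and wild-type pools 1 and 2. Nov, a secreted matricellular protein also made by neurons, was at 26.9, 17.1 and 23.9 CPM in mutant-labelled pools and 34.5, 25.6 and 26.3 CPM in wild-type pools. It was lower in the mutant-labelled pool of each number, but the groups overlapped. Its log2 fold change was −0.35 (SE 0.19, adjusted p = 0.797) without the block and −0.36 (SE 0.09, adjusted p = 0.0341) with it. Pdgfra of this list and Cspg4 of the mural list also mark oligodendrocyte precursors, whose 6 markers summed to 198, 207 and 216 CPM in mutant-labelled pools and 203, 195 and 209 CPM in wild-type pools. Gpr17 of that precursor list was called higher with the block alone (log2 fold change 0.31, SE 0.08, adjusted p = 0.0386).

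The remaining called genes encode signals that reach the vessels rather than vessel markers. Ndp encodes norrin, a ligand of the Fzd4 receptor on endothelial cells, and was at 9.85, 9.63 and 10.7 CPM in mutant-labelled pools and 6.64, 7.29 and 7.73 CPM in wild-type pools. Wnt7b, a neural ligand that drives brain vessel growth and barrier formation, was at 132, 131 and 124 CPM in mutant-labelled pools and 145, 142 and 152 CPM in wild-type pools. Sema3e, a semaphorin that repels vessels through Plxnd1 and is also expressed by deep-layer neurons, was at 5.84, 6.25 and 5.49 CPM in mutant-labelled pools and 7.06, 10.1 and 7.73 CPM in wild-type pools. The groups did not overlap for any of these 3 genes, with Ndp higher and Wnt7b and Sema3e lower in mutant-labelled pools. These genes are named because the block called them, so their separation is no further support. Of the 31 signalling genes, 5 separated as higher and 3 as lower, where 7.42% and 6.09% of all tested genes did.

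The log2 fold change of Ndp was 0.48 (SE 0.12), with an adjusted p of 0.396 without the block and 0.0325 with it. For Wnt7b it was −0.18 (SE 0.05), with adjusted p = 0.472 without the block and 0.0398 with it. For Sema3e it was −0.50 (SE 0.17, adjusted p = 0.525) without the block and −0.49 (SE 0.13, adjusted p = 0.0486) with it. Without wild-type pool 2 and without the block, the semaphorin and growth factor co-receptor gene Nrp1 was called higher (log2 fold change 0.46, adjusted p = 0.0367). That fit called 21 of all tested genes higher and 14 lower. With all pools Nrp1 was not called, either with or without the block. In blocked fits without the pools of 1 number, values ran from 0.43 to 0.52 for Ndp and −0.21 to −0.13 for Wnt7b. They ran from −0.60 to −0.38 for Sema3e and from −0.46 to −0.26 for Nov. The block called all 4 genes, and each differed in the same direction for every number. Their signs could therefore hardly turn in these fits, and that they held is no further support. The calls changed with the number left out. Without the pools numbered 1, Sema3e and Apold1 were called, where 141 of all tested genes were called higher and 154 lower. Without those numbered 3 none of the 101 was called, where 35 of all tested genes were called higher and 27 lower. Without those numbered 2 the count was 8 higher and 11 lower, Ndp, Wnt7b and Nov among them, where 1119 of all tested genes were called higher and 755 lower.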

How the data were processed

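Columns of the deposited table, named as the sample titles, gave each library its group. Per the labels, a stranded TruSeq kit was used. The table the authors deposited holds raw read counts per gene symbol, not normalized. The build mm10 and the tools HTSeq 0.5.3p9, Bowtie2 2.1.0, TopHat2 2.0.9 and CASAVA 1.8.2 stand in the submitters' processing notes, which in the sources used here give no roles, annotation or strand setting. All rows named a gene and 0 sample columns were unused.

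The test was that of edgeR 4.0.16 under R 4.3.3 (robust quasi-likelihood test, TMM, filterByExpr with a minimum count of 10, two-sided, Benjamini-Hochberg over 14618 genes). Alternatives were DESeq2 1.42.0 (test and size factors), no scaling, no filter, the pool number as a block, and pools or numbers left out. Standard errors come from the quasi-likelihood F statistic, and intervals are at 95%. Log2 CPM used a prior count of 2. The main fit, without the block, was run on simulated data with independent pools, and the other fits were not.

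Within each genotype, libraries differed beyond sampling noise (chi-square per degree of freedom 7.13 to 23.1), so none was a copy. The labels call the pools independent, and p-values reflect the spread between pools. Deviations from group means correlated at 0.61, 0.51 and 0.47 in same-numbered pools and at −0.48 to −0.07 in other combinations. This led to a further fit with the number as a block, beside the main fit without it. The pairing comes from the data, so the block was chosen from the same counts that it then fitted. Its p-values may therefore be too small, and calls made only with the block hold only under that choice. The blocked fits that also left out a number rest on few pools, so their p-values lean on spread borrowed from other genes. With 3 pools a group these correlations are not independent of each other.

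The members and all lists were chosen with earlier results of these data known. All 30 members are named. Of other lists, genes past an adjusted p of 0.05 with or without the block are named, and for each companion list the largest change in each direction at a mean log2 CPM of at least 1. Nrp1 is named beyond this rule, from a fit with a single pool left out. Older symbols matched 4 listed genes. Transcripts of the members were compared in 50-base stretches with GENCODE vM21 transcripts of other genes, and promoters came from RefSeq (GRCm38.p6).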

Additional observations from a re-analysis of the deposited data

How the results depend on the processing

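Over 15 alternatives the number of the 30 markers called stayed at 0, except for 2 lower genes with the block without the pools numbered 2 (leave-out range 0 to 2 lower). All settings draw on the same pools, so a sign that held is no further support for a difference. The log2 fold change kept its sign in every setting for 9 markers (Flt1, Tek, Abcb1a, Mfsd2a, Robo4, Sox18, Tagln, Slc6a13 and Aldh1a2) and turned in at least 1 for 21. For Pdgfrb it was 0.0048 with no scaling and 0.0020 with no filter, and for Abcc9 0.0059 and 0.0045. Every other turn came from leaving out pools or numbers, including the pools numbered 1 in both groups, which was added after seeing the data.
Ranges over the fits with pools left out were −0.23 to 0.030 for Pecam1, −0.11 to 0.049 for Kdr, −0.12 to 0.099 for Esam, −0.21 to 0.052 for Tie1, −0.17 to 0.67 for Slco1a4, −0.32 to 0.011 for Slc2a1, −0.18 to 0.043 for Ly6c1. They were −0.37 to 0.12 for Emcn, −0.27 to 0.080 for Egfl7, −0.039 to 0.20 for Sox17, −0.19 to 0.16 for Eng, −0.11 to 0.069 for Pdgfrb, −0.14 to 0.048 for Rgs5, −0.093 to 0.065 for Abcc9. They were also −1.67 to 0.46 for Acta2, −1.17 to 0.17 for Dcn, −1.72 to 0.17 for Lum, −0.96 to 0.015 for Ogn, −0.89 to 0.13 for Foxc1, −0.67 to 0.18 for Islr, −1.30 to 0.095 for Mgp.

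Over all genes, 7 were called higher and 4 lower. DESeq2 called 59 and 43, the fit with no filter 11 and 9, and the replicate block 288 and 218. With pools left out the counts ran from 1 to 1119 higher and from 1 to 755 lower. Of the companion genes, 0 were called in either direction, 1 higher and 3 lower with the replicate block, and 0 to 8 higher and 0 to 11 lower with pools left out. Median log2 fold changes with single pools left out ran from −0.18 to 0.03 for endothelial, −0.14 to 0.04 for pericyte and smooth muscle and −1.21 to 0.11 for meningeal genes. The cause of these moves was not tested. The block changed no other call of a listed gene than those given above. Depth limits Slco1a4, Mgp, Acta2, Tagln and Lum, which had as few as 6 to 20 reads in a pool. Antisense or near-identical genes could not be resolved at the level of gene counts.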
